A study of Mus musculus with 26 samples.

Results

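Liver X receptor (LXR) target genes and genes of cholesterol efflux were examined in open chromatin of Kupffer cells, the macrophages that reside in the mouse liver. The 10 genes were Abca1, Abcg1, Mylip, Apoe, Lpl, Ch25h, Lpcat3, Cd36, Scarb1 and Nr1h2, and their members are the ATAC-seq peaks that the deposited tables assign to one of these genes as the gene with the nearest start. These were 206 of the 96238 nuclear peaks of the inbred strains and 414 of the 213225 autosomal peaks of the hybrid. All 10 genes had a peak in both tables.

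LXRs are nuclear receptors that bind oxysterols, pair with a retinoid X receptor (RXR) on DNA and switch on genes that move cholesterol out of the cell. Nr1h2 encodes LXRβ. Abca1 and Abcg1 encode the transporters that pass cholesterol to lipoproteins, Apoe an acceptor of that cholesterol, Mylip a ubiquitin ligase, Lpcat3 an enzyme that remodels membrane phospholipids and Lpl a lipase of lipoprotein triglycerides. Ch25h makes the oxysterol 25-hydroxycholesterol and is known as an inflammation-inducible gene of macrophages, and Cd36 and Scarb1 encode scavenger receptors for lipids and lipoproteins. Kupffer cells take up lipoproteins and depend on LXRα for their identity.

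ATAC-seq maps open chromatin by letting a transposase insert sequencing adapters into accessible DNA. The cells were sorted from the livers of male young adult mice that the labels give as fasted overnight, controls included. Controls without injection came from 3 inbred strains, A/J, BALB/cJ and C57BL/6J, with n = 4 of each. Mice of the strains C57BL/6J (n = 3) and BALB/cJ (n = 2) received lipopolysaccharide (LPS) of E. coli O114:B4 into the peritoneum at 0.1 mg/kg for 2 h. CB6F1/J mice, the first-generation cross of BALB/cJ females with C57BL/6J males, in which a BALB/cJ and a C57BL/6J allele share each nucleus, gave 4 control and 5 LPS libraries.

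Inbred libraries held 2.08 to 47.2 M tags in peaks, and values below are tag counts per peak, normalised for library size. The paper describes counting windows of 1000 bp, but some close peaks differed too much to share such windows. The width behind the deposited counts is therefore not known. All 10 Kupffer cell markers checked had a peak at their start, as did 2 of 5 neutrophil, 2 of 5 monocyte, 2 of 6 sinusoidal endothelium and 1 of 5 stellate cell markers, and 0 of 6 hepatocyte and 0 of 5 lymphocyte markers. In the file headers all controls carry one library date, the BALB/cJ LPS libraries a later one and the C57BL/6J LPS libraries another, so that treatment, and strain under LPS, cannot be told apart from date. Only the LPS headers name fasting, and among the inbred libraries only the control headers name trimmed reads. The hybrid control columns are headed chow. Whether feeding differed between control and LPS mice was not tested. Inbred control counts come in steps of 0.5 tags and inbred LPS counts are whole. Mitochondrial peaks, left out here, held 0% of the tags in all C57BL/6J controls and 18.59 to 28.68% in the other inbred libraries, and comparisons with C57BL/6J controls carry that difference. C57BL/6J LPS replicate 1 stood apart, at 0.43 of the way from the controls (0) to the other LPS libraries of its strain (1), against 0.93 and 1.07 for those. Values without it are given where a count or call moved. Bulk ATAC-seq cannot separate fewer cells with an open site from less opening per cell.

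Because LXR and RXR bind a direct repeat of AGGTCA spaced by 4 bases (DR4), the peaks were searched on both strands of the mm10 (GRCm38) sequence for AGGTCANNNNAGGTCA. With up to 2 mismatches the motif lay in 9 of the 206 peaks (4.37%) and in 3.01% of all inbred peaks, and 5 of the 9 belonged to Abcg1. With up to 3 mismatches the shares were 19.42% and 18.66%. A match describes the letters only. The 5 sequences shown are those of Lpl and Mylip with 1 mismatch, 2 of the 5 Abcg1 matches with 2, picked for opposite LPS responses, and, as a promoter, that of Abca1 with 3. Capitals mark the match, and each sequence is the plus strand.
Lpl +0.7 kb peak, chr8:68881157-68881357: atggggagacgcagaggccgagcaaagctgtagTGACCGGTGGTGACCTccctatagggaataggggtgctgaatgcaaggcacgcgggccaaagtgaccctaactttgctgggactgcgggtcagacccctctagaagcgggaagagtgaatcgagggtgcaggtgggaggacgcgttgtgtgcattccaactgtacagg
Mylip -122.2 kb peak, chr13:45267452-45267652: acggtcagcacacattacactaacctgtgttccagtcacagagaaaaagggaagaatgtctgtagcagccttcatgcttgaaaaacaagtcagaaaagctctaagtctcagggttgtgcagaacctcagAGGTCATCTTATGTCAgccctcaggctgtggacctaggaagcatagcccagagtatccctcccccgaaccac
Abcg1 +1.2 kb peak, chr17:31058820-31059020: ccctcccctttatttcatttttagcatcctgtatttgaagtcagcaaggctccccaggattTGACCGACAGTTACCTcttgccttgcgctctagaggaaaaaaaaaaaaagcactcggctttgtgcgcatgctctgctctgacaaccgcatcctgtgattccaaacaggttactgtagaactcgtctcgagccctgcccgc
Abcg1 +9.5 kb peak, chr17:31067135-31067335: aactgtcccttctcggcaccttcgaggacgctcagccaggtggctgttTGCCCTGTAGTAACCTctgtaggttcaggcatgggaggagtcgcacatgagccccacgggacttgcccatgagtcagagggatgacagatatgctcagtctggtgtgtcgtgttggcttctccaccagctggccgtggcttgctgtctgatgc
Abca1 -0.1 kb peak, chr4:53159893-53160093: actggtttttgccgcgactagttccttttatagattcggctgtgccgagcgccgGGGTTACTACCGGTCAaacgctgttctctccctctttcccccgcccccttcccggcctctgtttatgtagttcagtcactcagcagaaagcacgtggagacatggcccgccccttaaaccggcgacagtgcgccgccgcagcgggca
On the minus strand the Lpl match reads AGGTCACCACCGGTCA, and those of Abcg1 read AGGTAACTGTCGGTCA at +1.2 kb and AGGTTACTACAGGGCA at +9.5 kb. The Abca1 match, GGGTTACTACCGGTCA, begins 67 bases before the transcription start that RefSeq gives for this build.

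AP-1, the Fos and Jun family that acts downstream of LPS, binds TGANTCA. This motif lay in 34 of the 206 peaks (16.5%) and in 14.31% of all peaks. The next 2 sequences were chosen because their peaks rose with LPS in both strains and each holds the motif at 2 places, in capitals.
Ch25h +29.3 kb peak, chr19:34445734-34445934: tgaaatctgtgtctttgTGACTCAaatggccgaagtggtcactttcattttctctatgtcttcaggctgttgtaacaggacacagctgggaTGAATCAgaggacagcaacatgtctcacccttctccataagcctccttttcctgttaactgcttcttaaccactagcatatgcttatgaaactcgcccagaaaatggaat
Abca1 -21.8 kb peak, chr4:53181582-53181782: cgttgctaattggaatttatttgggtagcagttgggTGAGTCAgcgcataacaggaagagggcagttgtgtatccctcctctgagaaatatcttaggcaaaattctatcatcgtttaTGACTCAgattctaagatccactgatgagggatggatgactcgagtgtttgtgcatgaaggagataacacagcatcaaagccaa

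The 206 peaks lay mostly in introns (111) and between genes (78), with 11 annotated as promoters, and 199 of them lay within 100 kb of the start. Abca1 had 45 peaks, Mylip 32, Abcg1 and Scarb1 30 each, Cd36 20, Ch25h 19, Lpl 14, Lpcat3 7, Apoe 5 and Nr1h2 4. Their median normalised count over the inbred libraries was 20.0, against 19.4 for all peaks. For 108 of them the centre of another peak lies within 1000 bp, so that neighbouring values may not be independent.

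The peak at the start, taken as the most open one within 1 kb of it, differed greatly in openness between the genes. Among controls the starts of Lpcat3, Abca1 and Mylip were the most open, with group means of 411 to 475, 369 to 454 and 343 to 389 normalised counts. Neighbours in this order overlap in their means. Nr1h2 (94.0 to 127), Cd36 (93.2 to 119) and Apoe (94.2 to 103, at its peak 0.6 kb upstream) formed a middle level without separate ranges. Scarb1 (38.9 to 50.2), Abcg1 (33.8 to 47.4) and Lpl (28.2 to 47.5) were lower, and Ch25h, a gene with a single exon, had 8.70 to 10.7. None of these 10 peaks was called between control strains.

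**Figure D1:**
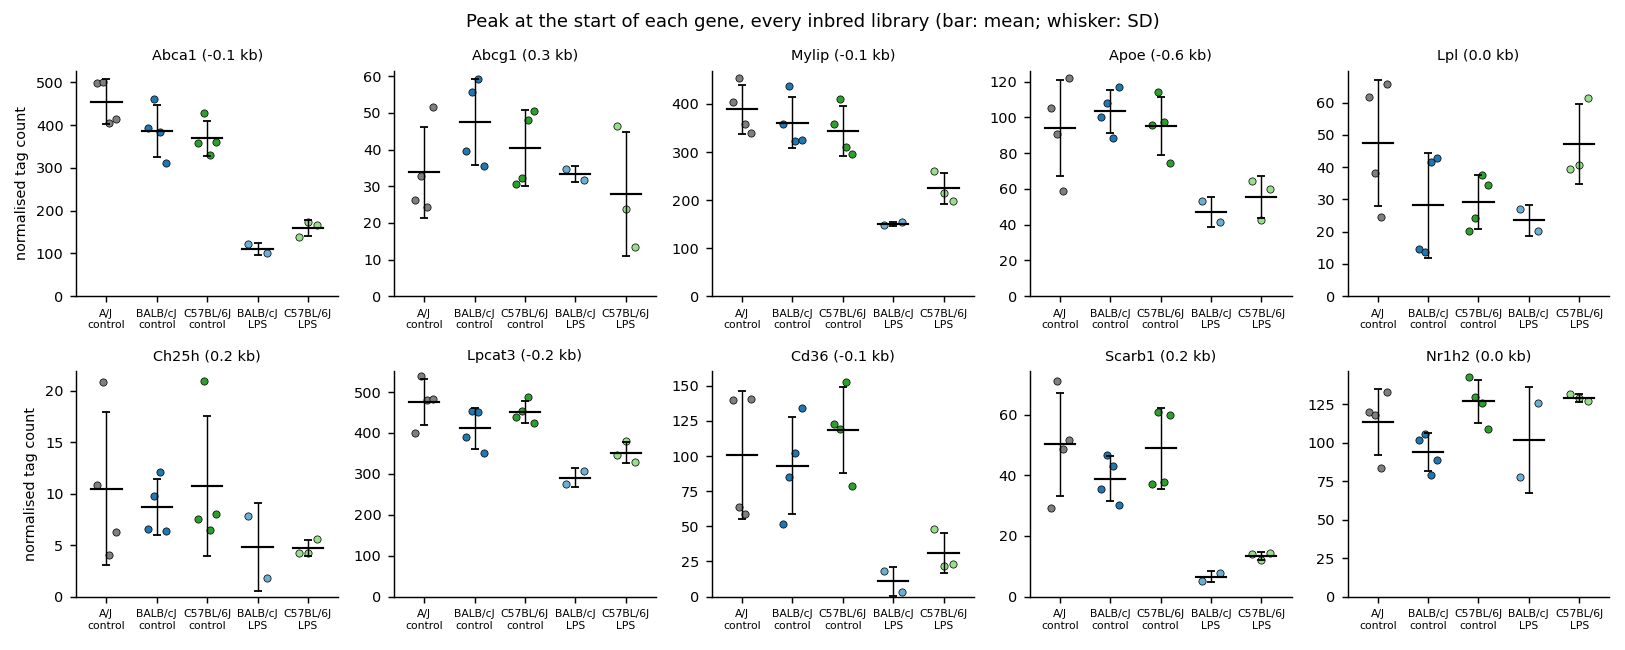
Normalised tag count (vertical axis, from 0, a different scale in each panel) of the peak at the start of each of the 10 genes in every inbred library, by strain and treatment, with the mean as a bar and the SD as a whisker. The LPS libraries of Abca1 (100 to 174), Cd36 (3.52 to 47.8) and Scarb1 (5.23 to 14.3) all lie below every control library, whereas those of Lpl lie among the controls and those of Nr1h2 range from 77.5 to 132 beside 79.2 to 143 in controls.

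C57BL/6J and BALB/cJ controls were compared to ask which of these regions differ between the strains without treatment. Of 109 peaks with a mean count over 16, 9 were lower in C57BL/6J and 1 was higher, at an adjusted p under 0.05 and a ratio over 2 (edgeR). Over all peaks tested, 4.16% were lower and 3.14% higher. The median log2 ratio was -0.20 for the members and 0.02 for all peaks. The 9 lower peaks belonged to Abcg1 (4), Mylip (3), Cd36 and Abca1. Among markers of other cells, the summed promoter count of Kdr and Tek, of endothelium, was 2.60 to 9.31 in C57BL/6J and 9.75 to 51.0 in BALB/cJ controls, and that of S100a8 and Mmp8, of neutrophils, 91.5 to 133 and 119 to 178. Stab2, Cdh5, Clec4g, Pecam1, S100a9, Ly6g and Cxcr2 had no promoter peak. The part of these cells in the strain differences was not tested.

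Abcg1 was the gene with the most such peaks. The intronic peak 20.0 kb downstream of its start (chr17:31077573-31077773) held 60.7, 91.7, 92.6 and 119 normalised counts in BALB/cJ, and 30.7, 38.5, 26.0 and 25.3 in C57BL/6J. In A/J it held 37.0, 28.4, 20.3 and 34.4. All BALB/cJ libraries lay above all others, by a log2 ratio of -1.62 ± 0.27 (SE) in C57BL/6J against BALB/cJ (adjusted p = 3.59e-05).

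The Abcg1 peak at -19.1 kb (chr17:31038448-31038648) held 195, 178, 231 and 212 in BALB/cJ, 116, 81.8, 88.4 and 102 in C57BL/6J and 103, 94.1, 138 and 131 in A/J. Its log2 ratio of C57BL/6J to BALB/cJ was -1.06 ± 0.18. The intronic peaks at +17.9 kb (-1.06 ± 0.20) and +32.4 kb (-1.26 ± 0.36) differed the same way, and so did all 3 of the peaks at +17.9, +20.0 and +32.4 kb in A/J against BALB/cJ. All 4 of the peaks that differed from C57BL/6J were thus most open in BALB/cJ controls. Of them, 1 lies upstream of the gene and 3 in its introns. Under LPS none of the 4 was called between these strains. Those at -19.1 and +17.9 kb then had log2 ratios of 0.06 ± 0.23 and -0.20 ± 0.25. Those at +20.0 and +32.4 kb had 0.04 ± 0.34 and -0.07 ± 0.45. Between the alleles of hybrid controls only the -19.1 kb peak was tested, and it was not called (-0.43 ± 0.28).

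**Figure D2:**
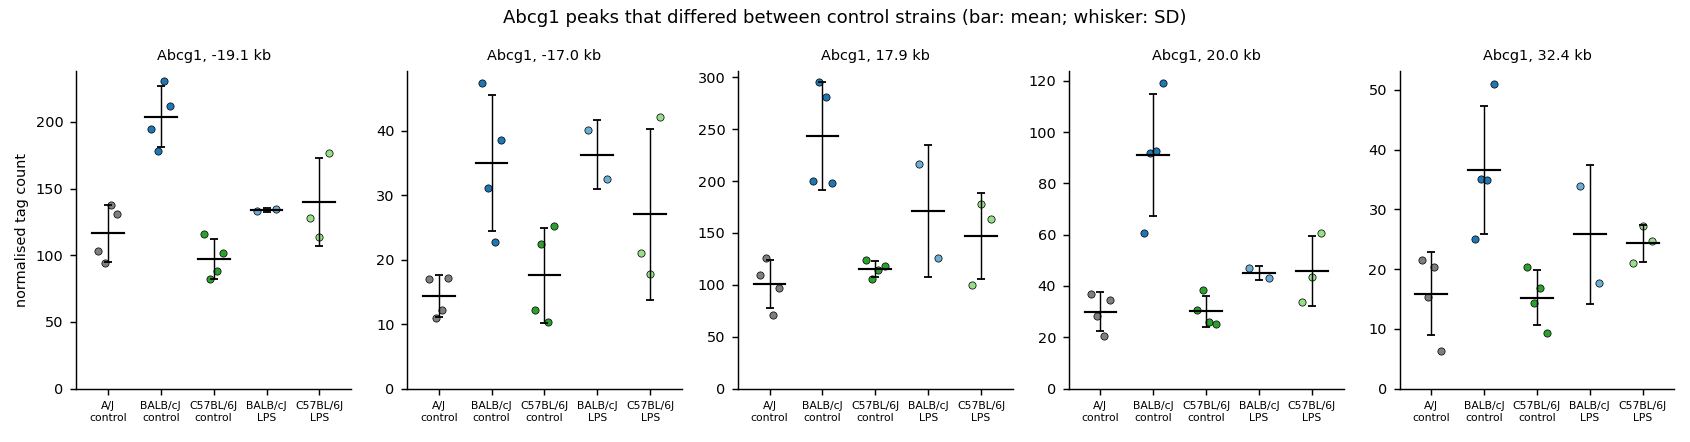
Normalised tag count (vertical axis, from 0) of the 5 Abcg1 peaks called between control strains, in every inbred library by strain and treatment, with the mean as a bar and the SD as a whisker. BALB/cJ control libraries lie above the A/J and C57BL/6J controls at +17.9 kb (198 to 295 against 71.2 to 126) and +20.0 kb, and overlap C57BL/6J at -17.0 kb.

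Against A/J, 7 of 115 member peaks were higher in BALB/cJ (3.00% of all peaks tested) and 0 were lower (1.58%). In edgeR, 25 of the 115 had an unadjusted p under 0.05, and DESeq2 called the same number, 7 higher in BALB/cJ and 0 lower. The 7 were the 3 intronic Abcg1 peaks above, an Abcg1 peak at -17.0 kb (A/J against BALB/cJ log2 -1.30 ± 0.38), and peaks of Abca1, Apoe and Mylip. The Apoe peak lies in the 5′ UTR (chr7:19698137-19698337). It held 13.9, 21.9, 20.3 and 26.6 in A/J and 34.3, 28.3, 51.0 and 54.9 in BALB/cJ, without overlap (log2 -1.05 ± 0.32, adjusted p = 0.0399). The count of 7 was 4 when the 2 groups were fitted alone, where the peaks of Apoe and Mylip and Abcg1 +32.4 kb no longer passed. It was 3 without A/J control replicate 1 or 2 or BALB/cJ control replicate 3, and 2 without BALB/cJ control replicate 4, the deepest library. The neutrophil sum was at most 79.9 in A/J, below every BALB/cJ control, and its part was not tested.

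The Abca1 peak at +41.0 kb (chr4:53118821-53119021) was called lower in A/J than in BALB/cJ, with 6.17, 7.66, 4.07 and 14.1 against 7.91, 14.6, 57.7 and 31.4. BALB/cJ replicates 3 and 4 carry that ratio (log2 -1.77 ± 0.51, adjusted p = 0.0293), and replicates 1 and 2 overlap A/J. Another Abca1 intron peak, at +25.6 kb (chr4:53134158-53134358), was lower in C57BL/6J than in BALB/cJ without overlap, at 12.8, 17.7, 19.5 and 9.31 against 34.3, 34.1, 51.0 and 46.7 (log2 -1.52 ± 0.35). A/J lay between and overlapped C57BL/6J, at 9.25, 15.3, 32.6 and 31.3.

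Around Mylip, 3 distal peaks were lower in C57BL/6J than in BALB/cJ. The peak at -122.2 kb, which holds the DR4 match printed above, had 22.0, 9.63, 18.2 and 39.9 in C57BL/6J. It had 94.9, 40.0, 133 and 149 in BALB/cJ and 102, 53.6, 85.5 and 82.9 in A/J. Here C57BL/6J was the strain that differed, at log2 -2.22 ± 0.36 against BALB/cJ (adjusted p = 2.02e-05), and A/J was higher than C57BL/6J by 1.82 ± 0.37 (adjusted p = 6.46e-04). The peaks at -134.2 kb (-1.34 ± 0.35) and +55.1 kb (-1.33 ± 0.26) were the other two.

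At Cd36 an intronic peak at +12.1 kb (chr5:17876776-17876976) was lower in C57BL/6J, with 86.4, 132, 68.9 and 71.8 against 148, 169, 262 and 217 in BALB/cJ (log2 -1.16 ± 0.23, adjusted p = 4.79e-04). The groups did not overlap. A/J spread over both, at 94.0, 95.2, 126 and 219.

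The peak higher in C57BL/6J lies upstream of Lpl at -42.7 kb, between genes. It held 35.4, 44.9, 44.2 and 34.6 normalised counts in C57BL/6J controls, 2.64, 0, 0 and 0.369 in BALB/cJ and 0, 3.28, 0 and 0 in A/J. It was therefore open in 1 of the 3 strains. After LPS it held 25.3, 28.9 and 18.3 in C57BL/6J, against 2.61 and 0 in BALB/cJ. Its sequence is printed because it carries the largest strain difference among the member peaks tested. None of the motifs searched lay in it, so it has no capitals, and 46.8% of its bases are marked as repeats in the reference.
Lpl -42.7 kb peak, chr8:68837774-68837974: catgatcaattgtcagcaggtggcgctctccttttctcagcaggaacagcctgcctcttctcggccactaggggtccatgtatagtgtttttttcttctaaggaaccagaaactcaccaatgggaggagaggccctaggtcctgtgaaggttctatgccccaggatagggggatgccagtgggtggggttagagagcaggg
A/J against C57BL/6J gave only this peak as lower (-5.09 ± 0.69) and Mylip -122.2 kb as higher, 2 of 106 tested, where 3.87% and 3.29% of all peaks were lower and higher. Reads of A/J and BALB/cJ were mapped to genomes that carry small variants but not larger structural ones, and the part of this in the difference was not tested.

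LPS was compared with control to ask which regions respond to an acute bacterial stimulus. In C57BL/6J, 21 of 198 member peaks rose and 16 fell (12.3% and 8.07% over all peaks). In BALB/cJ 29 of 200 rose and 33 fell (16.2% and 11.3%). Without C57BL/6J LPS replicate 1 the C57BL/6J counts were 25 and 19, and without replicate 3 they were 12 and 10. Without BALB/cJ LPS replicate 2 the BALB/cJ counts were 16 and 15. The median log2 ratio of the members was -0.07 in C57BL/6J and -0.32 in BALB/cJ, against -0.03 and -0.07 for all peaks.

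Within 1 kb of a start, 5 of 19 member peaks fell and 0 rose in C57BL/6J, and 8 of 18 fell and 0 rose in BALB/cJ. Of all peaks that near to a start, 15.6% fell and 2.85% rose in C57BL/6J. In BALB/cJ these shares were 20.0% and 5.49%. Farther away 21 of 179 member peaks rose and 11 fell in C57BL/6J (15.1% and 5.85% of all such peaks), and 29 of 182 rose and 25 fell in BALB/cJ (19.4% and 8.84%).

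The promoter of Abca1 held 357, 428, 330 and 360 normalised counts in C57BL/6J controls and 138, 174 and 166 after LPS. In BALB/cJ it held 393, 460, 384 and 311, and after LPS 121 and 100. No LPS library reached a control, at log2 -1.20 ± 0.16 (adjusted p = 1.15e-06) and -1.80 ± 0.19 (adjusted p = 2.02e-08). A peak 0.5 kb inside the gene fell as well (-1.57 ± 0.29 and -2.30 ± 0.36), as did an intronic peak at +39.3 kb (chr4:53120450-53120650), which went from 302 to 443 in the controls of both strains to 111 to 145 (-1.53 ± 0.16 and -1.66 ± 0.19).

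Of the 10 peaks plotted, the Cd36 promoter (chr5:17835859-17836059) had the largest fall in both strains. C57BL/6J controls had 123, 119, 153 and 78.4, and LPS libraries 47.8, 22.1 and 23.1. BALB/cJ controls had 51.4, 84.8, 102 and 134 against 18.3 and 3.52. These are log2 ratios of -1.99 ± 0.38 and -3.12 ± 0.49.

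At Scarb1 the peak at the start (chr5:125340753-125340953) went from 37.1, 61.0, 37.7 and 59.8 to 14.0, 11.9 and 14.3 in C57BL/6J (-1.84 ± 0.36). In BALB/cJ it went from 35.6, 46.8, 43.0 and 30.3 to 5.23 and 7.91 (-2.53 ± 0.46). The Apoe promoter peak nearest the start (chr7:19698983-19699183) fell from 31.3, 54.6, 48.1 and 49.2 to 21.1, 8.49 and 8.76 in C57BL/6J. In BALB/cJ it fell from 85.7, 44.9, 75.2 and 56.3 to 5.23 and 4.40, the ratios being -1.90 ± 0.38 and -3.72 ± 0.49. LPS and control libraries did not overlap at either gene.

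The Apoe peak at -0.6 kb and the Mylip promoter passed in BALB/cJ (-1.14 ± 0.28 and -1.26 ± 0.18). In C57BL/6J their log2 ratios were -0.79 ± 0.24 and -0.61 ± 0.16 with adjusted p = 0.0156 and 0.00328, under the ratio required. Those at the starts of Nr1h2 (0.02 ± 0.20 and 0.11 ± 0.23), Lpl (0.73 ± 0.38 and -0.32 ± 0.44), Ch25h (-1.11 ± 0.65 and -0.79 ± 0.72) and Lpcat3 (-0.36 ± 0.13 and -0.50 ± 0.15) were not called in C57BL/6J or BALB/cJ. The Abcg1 peak at +0.3 kb was at -0.58 ± 0.37 and -0.49 ± 0.39, and passed in C57BL/6J only without LPS replicate 1 (-1.07, adjusted p = 0.0359). The summed promoter count of the 10 Kupffer cell markers moved in the same direction, from 947 to 1160 in inbred controls to 579 to 809 after LPS. Of 5 monocyte markers, Plac8 and Cx3cr1 had a promoter peak (summed 13.3 to 44.7 in controls, 28.1 to 44.2 in C57BL/6J LPS and 61.9 to 66.0 in BALB/cJ LPS), and Ly6c2, Ccr2 and Chil3 had none. The part of either in these falls was not tested.

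**Figure D3:**
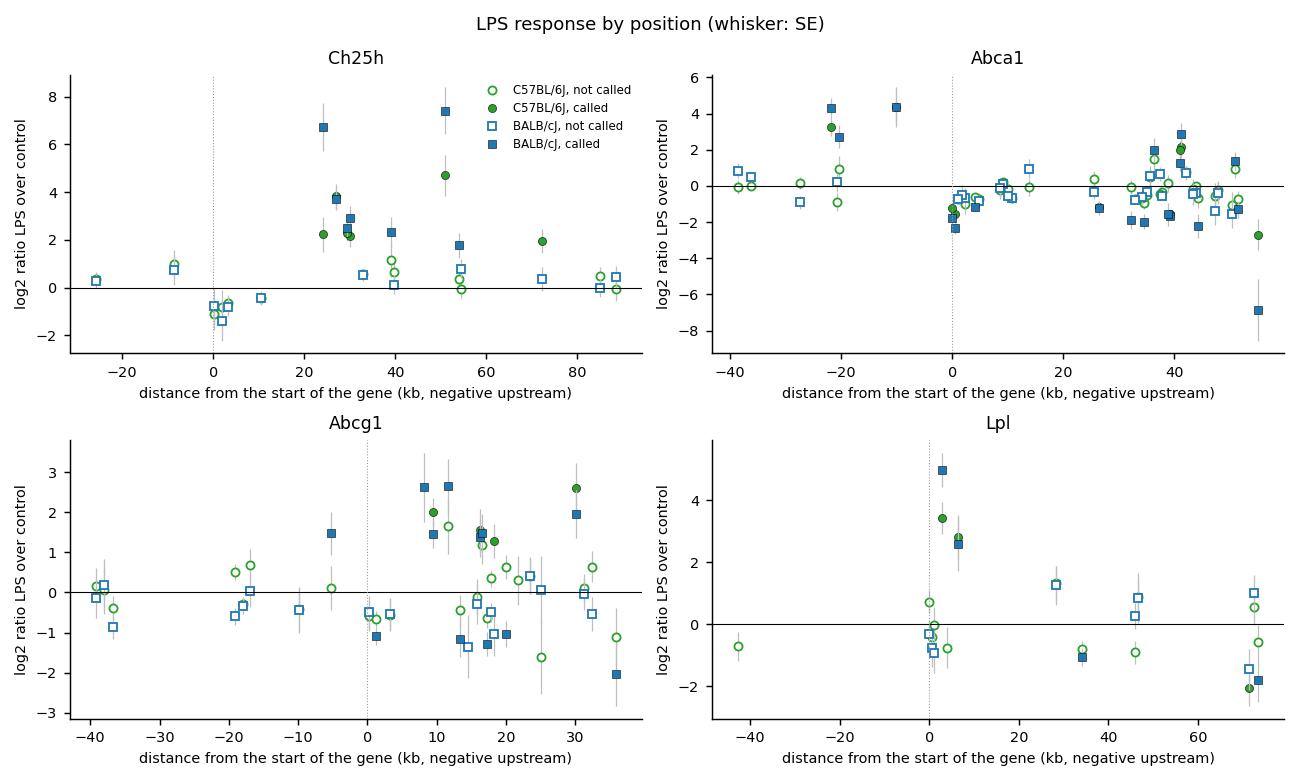
Log2 ratio of LPS to control (vertical axis, whisker SE) against distance from the start of the gene in kb for the tested peaks of Ch25h, Abca1, Abcg1 and Lpl, circles for C57BL/6J and squares for BALB/cJ, filled where called. The called Ch25h peaks lie between 24.0 and 72.2 kb from the start and are all above 0, while the peak at the start of Abca1 is below 0 with called peaks above 0 at -21.8 and -10.2 kb.

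Of the 19 Ch25h peaks, 6 rose in C57BL/6J. The count for BALB/cJ was 7, and 0 fell in either strain. Of all peaks farther than 1 kb from a start, 15.1% rose and 5.85% fell in C57BL/6J. In BALB/cJ these shares were 19.4% and 8.84%. With 19 peaks, the 0 falls cannot be told apart from such shares. The Ch25h peaks that rose lie between genes. The peak at +29.3 kb, printed above, held 12.2, 12.8, 16.9 and 16 in C57BL/6J controls and 50.6, 78.1 and 78.1 after LPS. In BALB/cJ it held 22.4, 10.7, 13.4 and 16.6, and 94.1 and 83.5 after LPS (log2 2.28 ± 0.32 and 2.49 ± 0.33).

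The Ch25h peak at +26.9 kb (chr19:34448086-34448286) was nearly closed in controls. It held 1.16, 3.21, 3.90 and 5.32 in C57BL/6J and rose to 15.4, 45.9 and 66.1. From 1.32, 5.85, 12.1 and 5.71 in BALB/cJ it rose to 80.1 and 82.7. Replicate 1 of C57BL/6J LPS, the library that stood apart, was the lowest of the LPS libraries here, and the ratios were 3.82 ± 0.53 and 3.73 ± 0.47. At +51.0 kb (chr19:34424025-34424225) no inbred control exceeded 2.03, and the LPS libraries held 7.02, 13.6 and 45.4 in C57BL/6J. Those of BALB/cJ held 17.4 and 42.2. The peaks at +24.0 and +30.1 kb also rose in both strains, at +72.2 kb in C57BL/6J (1.96 ± 0.51) and at +39.1 (2.33 ± 0.62) and +53.9 kb (1.78 ± 0.52) in BALB/cJ.

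Lpl had an intronic peak at +2.8 kb (chr8:68883209-68883409) with 1.33 to 5.20 in C57BL/6J controls and 11.2, 40.8 and 52.6 after LPS. BALB/cJ rose from 0.975 to 4.03 to 56.6 and 62.4, and the log2 ratios were 3.42 ± 0.52 and 5.00 ± 0.55. A second at +6.4 kb rose in both (2.82 ± 0.71 and 2.59 ± 0.87). The start of Lpl did not pass the test in either strain.

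Abca1, whose promoter fell, had distal peaks that rose. At -21.8 kb, printed above, C57BL/6J controls held 7.54, 6.42, 2.60 and 3.99 and LPS libraries 16.9, 76.4 and 63.7. BALB/cJ controls held 1.32, 7.80, 0 and 3.32, and LPS libraries 61.9 and 74.7 (3.27 ± 0.51 and 4.31 ± 0.54). All LPS values were above all controls. In the intron, peaks at +41.0 kb (2.00 ± 0.46 and 1.26 ± 0.46) and +41.3 kb (2.15 ± 0.62 and 2.88 ± 0.60) rose beside the +39.3 kb peak that fell.

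At Abcg1, C57BL/6J had 4 rises and 0 falls among 28 peaks, where 12.3% of all peaks were rises and 8.07% falls. BALB/cJ had 7 rises and 5 falls among 29, where these shares were 16.2% and 11.3%. Whether the Abcg1 counts differ from such shares was not tested. The +9.5 kb peak, printed above with its DR4 match, held 13.3, 28.9, 14.3 and 14.6 in C57BL/6J controls and 52.0, 69.6 and 82.0 after LPS. It held 40.9, 34.1, 26.8 and 27.6 in BALB/cJ, and 100 and 75.6 after LPS, with ratios of 2.00 ± 0.35 and 1.46 ± 0.35. The +1.2 kb peak, which holds the other printed Abcg1 match, fell in BALB/cJ from 125, 154, 162 and 155 to 69.7 and 71.2 (-1.09 ± 0.23), and was at -0.67 ± 0.20 in C57BL/6J. The other 3 Abcg1 peaks with a DR4 match of 2 mismatches, at -17.9 (-0.29 ± 0.18 and -0.34 ± 0.20), +0.3 and +14.5 kb, were not called in either strain, and that at +14.5 kb was tested only in BALB/cJ (-1.35 ± 0.78). The +1.2 kb call was lost when libraries were scaled to total tags in peaks (-0.96).

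Scarb1 had rises in its introns beside the fall at its start. The peak at +35.7 kb (chr5:125305325-125305525) went from 11, 9.63, 7.80 and 29.3 to 32.3, 107 and 122 in C57BL/6J. In BALB/cJ it went from 30.3, 4.88, 13.4 and 20.9 to 172 and 110, and the ratios were 2.64 ± 0.43 and 2.99 ± 0.43. The +27.0 kb (1.87 ± 0.37 and 2.37 ± 0.38) and +6.3 kb peaks (2.21 ± 0.52 and 2.45 ± 0.41) rose too. Nr1h2 had no called peak of 4 in either strain, and Lpcat3 had 1 of 7, at -1.7 kb in BALB/cJ (1.39 ± 0.45).

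The strains shared most of the C57BL/6J calls. Called in both were 29 peaks, all in the same direction, which is 78.4% of the C57BL/6J calls and 46.8% of those in BALB/cJ. The same shares over all peaks are not given, so this overlap cannot be called particular to these genes. Over the 193 peaks tested in both, the log2 ratios had Pearson r = 0.82, a description across peaks that share libraries and lie close together. When the difference between the strains in the response was itself tested, 0 of 205 peaks passed in edgeR (0.145% of all peaks did), 18 had an unadjusted p under 0.05, and DESeq2 also called 0.

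**Figure D4:**
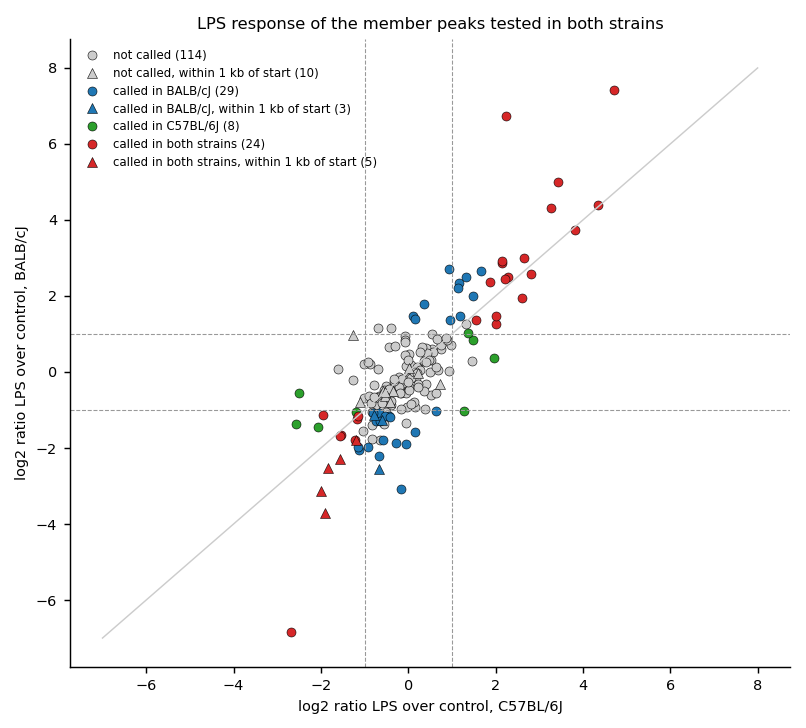
Log2 ratio of LPS to control in C57BL/6J (horizontal axis) and BALB/cJ (vertical axis) for the 193 member peaks tested in both strains, coloured by call, triangles within 1 kb of a start, dashed lines at the ratio threshold of 1 and a diagonal for equal ratios. The 29 peaks called in both strains lie in the lower left and upper right corners, and no triangle called in both lies in the upper right.

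Among the peaks that rose, AP-1 motifs were frequent. TGANTCA lay in 11 of the 21 peaks that rose in C57BL/6J (52.4%), 3 of the 16 that fell and 18 of the 161 not called. Over all peaks it lay in 46.9% of those that rose, 2.7% of those that fell and 10.5% of those not called. In BALB/cJ it lay in 15 of 29 (51.7%) that rose and 43.9% of all that rose. The share among risen member peaks was close to that among all risen peaks. DR4 with up to 2 mismatches lay in 1 of the 21 (4.8%) and 1 of the 29 (3.4%), in each case the +9.5 kb peak of Abcg1. In C57BL/6J it lay in 0 of the 16 that fell and 7 of the 161 not called (4.3%). For BALB/cJ these were 2 of 33 (6.1%) and 6 of 138 (4.3%).

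Under LPS, C57BL/6J and BALB/cJ differed at 4 of 124 member peaks, where 5.28% of all peaks differed. The Scarb1 peak at +6.3 kb (chr5:125334695-125334895) held 19.7, 10.2 and 11.9 in C57BL/6J, against 64.5 and 75.6 in BALB/cJ (log2 -2.36 ± 0.45, adjusted p = 4.88e-04). The Abcg1 peak at +18.3 kb went the other way, with 21.1, 28.9 and 31.1 against 7.84 and 2.64 (2.36 ± 0.57). It lies beside the +17.9 kb peak, which was not called under LPS (-0.20 ± 0.25). Mylip +55.1 kb (-1.19 ± 0.32), which also differed in controls, and Scarb1 +11.7 kb (-1.14 ± 0.35) were the others. The groups do not overlap at these 4 peaks, and the count was 1 without BALB/cJ LPS replicate 2 and 7 without replicate 1.

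In the hybrid the LPS response was tested on tags that span a parental variant, which covered 102 of the 414 member peaks. Of 59 tested, 14 rose and 7 fell (14.4% and 11.8% of all peaks). No Apoe, Cd36, Lpcat3 or Nr1h2 peak held such a tag. Tags mapped perfectly to the C57BL/6J genome, a choice added after the data were seen, cover the rest, and gave 55 rises and 71 falls of 411 (14.3% and 10.5% of all peaks). There, the promoter of Cd36 went from 200 to 295 in 4 control libraries to 23.1, 28.9, 32.4, 36.4 and 43.8 in the 5 LPS libraries (-2.96 ± 0.24). The promoter of Abca1 went from 1165, 1252, 1491 and 1664 to 677 to 759 (-0.97 ± 0.12), without overlap but under the ratio required. Apoe had 6 falls and 0 rises of 10, and Ch25h 11 rises and 1 fall of 34. Mylip's promoter differed by kind of tag, at -0.27 ± 0.12 on perfectly mapped tags and 0.60 on variant-spanning tags (adjusted p = 0.0227), both under the ratio required. On variant-spanning tags a Scarb1 peak 0.5 kb inside the gene rose (1.38 ± 0.27), beside the start that fell in the inbred strains.

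The hybrid values and calls in this paragraph are from perfectly mapped tags, the choice added after the data were seen. The Abca1 peak at -21.8 kb went from 0, 4.19, 2.56 and 0 in hybrid controls to 222, 207, 126, 250 and 242. The Lpl peak at +2.8 kb went from 3.85 to 10.4 to 112 to 217, and Abcg1 +9.5 kb from 71.8 to 92.2 to 293 to 424. In each the LPS libraries were above every control. Of the member peaks, 22 were called in the same direction in C57BL/6J, BALB/cJ and the hybrid (perfectly mapped tags), 13 of them rises. The matching share of all peaks is not given, so no trait of these genes can be read from that count.

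Alleles of the hybrid were compared to ask whether a strain difference stays with the allele when both share a nucleus. Only 13 member peaks had enough variant-spanning tags in controls and 17 after LPS, and 1 passed in each (11.5% and 15.4% of all peaks). In controls it was Lpl -42.7 kb. The C57BL/6J allele held 51.8, 26.1, 23.6 and 32.9 normalised tags in the 4 animals and the BALB/cJ allele 11.2, 17.6, 4.95 and 3.37. The alleles did not overlap and the C57BL/6J allele was higher in 4 of 4 animals, by log2 1.96 ± 0.45 (adjusted p = 0.0172). This allele ratio was smaller than the strain ratio by 4.22 ± 0.74 (adjusted p = 7.96e-04). The call was lost without animals 1, 3 or 4, at adjusted p = 0.0535 to 0.0750.

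The hybrid peak matched to Mylip -122.2 kb (chr13:45267371-45267571) overlaps the inbred peak in part and ends before its DR4 match. There the C57BL/6J allele held 23.9, 17, 21.2 and 31.8 in controls. The BALB/cJ allele held 24.4, 19.0, 14.9 and 29.2, overlapping throughout (0.11 ± 0.36). The strain ratio was lower than this allele ratio by -2.33 ± 0.54 (adjusted p = 0.0123), a call lost with no minimum count. These were 2 of 10 member peaks in that comparison, where 4.00% of all peaks passed. Both ratios come from separately normalised tables.

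**Figure D5:**
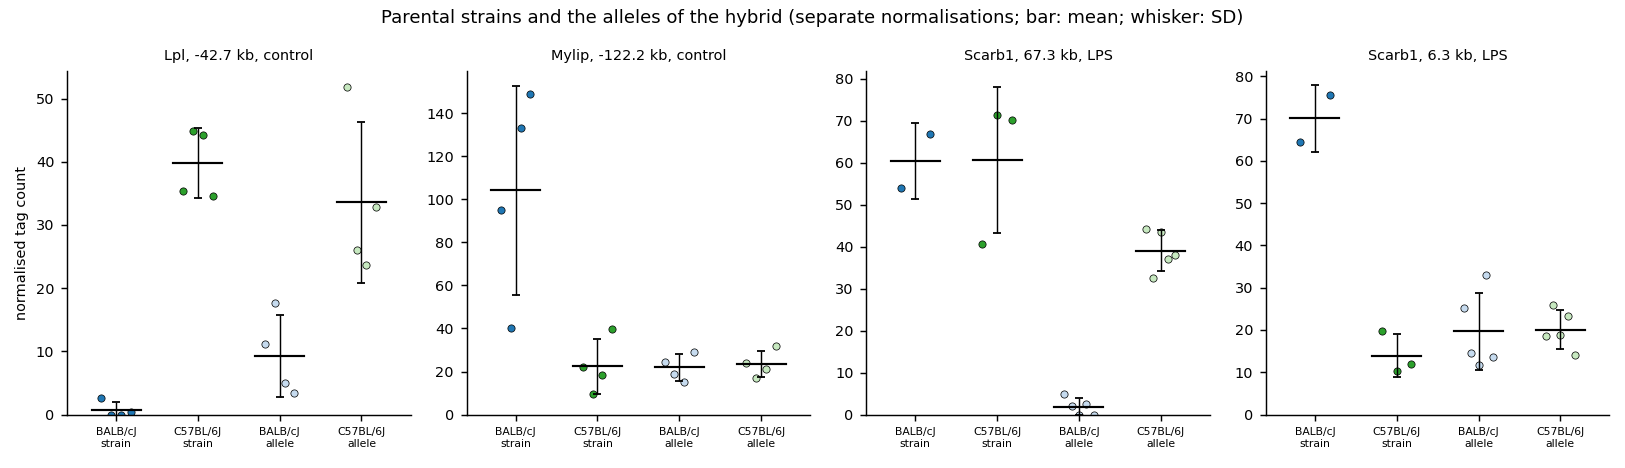
Normalised tag count (vertical axis, from 0) of 4 peaks in BALB/cJ and C57BL/6J libraries and on the BALB/cJ and C57BL/6J alleles of hybrid animals of the same treatment, with the mean as a bar and the SD as a whisker; strain and allele columns were normalised separately. At Mylip -122.2 kb the strains differ and the alleles overlap, and at Scarb1 +67.3 kb the strains overlap and the BALB/cJ allele is at 0 to 4.87.

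After LPS the allele call was at Scarb1 +67.2 kb. The C57BL/6J allele held 44.3, 32.5, 43.6, 37.1 and 37.9 and the BALB/cJ allele 4.87, 1.95, 0, 2.42 and 0, higher in 5 of 5 animals (log2 4.38 ± 0.71, adjusted p = 0.00223). In the inbred mice the matching peak (chr5:125273731-125273931) held 40.7, 71.3 and 70.1 after LPS in C57BL/6J, against 54.0 and 66.8 in BALB/cJ, so that BALB/cJ lay inside the range of C57BL/6J. Strain ratio and allele ratio differed by -4.17 ± 0.56 (adjusted p = 2.63e-04). Whether reads of the BALB/cJ allele can be counted at this variant was not tested.

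At Scarb1 +6.3 kb, where the strains differed after LPS, the alleles overlapped, with 14.0 to 25.8 on the C57BL/6J allele and 11.7 to 33.1 on the BALB/cJ allele (0.08 ± 0.39). The difference between the ratios was -2.28 ± 0.44 (adjusted p = 0.00659), a call lost with no minimum count and without BALB/cJ LPS replicate 2. These were the 2 of 16 peaks that passed under LPS, where 3.74% of all peaks did. An allele difference in the response to LPS was found at 0 of 47 member peaks in edgeR and at 0% of all peaks tested, 3 had an unadjusted p under 0.05, and DESeq2 called 0.

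The other genes of the pathway were counted in the same comparisons. Nuclear receptor genes (Nr1h3, which encodes LXRα, Rxra, Rxrb and Pparg) had 19 falls and 1 rise among 87 peaks with LPS in C57BL/6J (21.8% and 1.15%, against 8.07% and 12.3% of all peaks), and 28 falls and 6 rises among 85 in BALB/cJ (32.9% and 7.06%, against 11.3% and 16.2%). Rxra, which like Rxrb encodes an RXR, held 17 and 23 of these falls, led by its intronic peak at +29.8 kb (-1.57 ± 0.19 and -1.52 ± 0.22). The starts of Nr1h3 (-1.36 ± 0.34 and -1.42 ± 0.39) and Rxrb (-1.63 ± 0.40 and -1.97 ± 0.48) fell in both strains. Many of the Rxra peaks lie in one locus and are not independent.

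Of the 12 other LXR targets, 11 had peaks, with 17 rises and 11 falls of 127 in C57BL/6J (13.4% and 8.66%) and 23 and 20 of 128 in BALB/cJ (18.0% and 15.6%), shares near those of all peaks for the rises. Smpdl3a, a phosphodiesterase gene, rose at +24.6 kb (3.80 ± 0.57 and 4.31 ± 0.56), and the Apoc1 peak at -1.0 kb fell (-1.72 ± 0.31 and -2.22 ± 0.37). Srebf1, the lipogenic regulator, fell in both strains, at +0.1 kb in C57BL/6J (-1.45 ± 0.34) and at -0.4 kb in BALB/cJ (-1.67 ± 0.26). The start of Fasn, the fatty acid synthase, fell in C57BL/6J (-1.02 ± 0.29), and Fasn had no called peak in BALB/cJ. Storage and lysosomal release genes had 7 rises and 2 falls of 79 (8.86% and 2.53%), and 11 and 7 of 84 (13.1% and 8.33%), below the shares of all peaks. Npc2, a lysosomal cholesterol carrier, rose at +8.2 kb (3.04 ± 0.53 and 4.55 ± 0.60). The scavenger receptor gene Msr1 had 4 rises and 0 falls in C57BL/6J and 10 rises and 1 fall in BALB/cJ, and the lipid droplet gene Plin2 had 1 rise and 1 fall, and 5 rises and 3 falls. Olr1, another scavenger receptor gene, had 1 fall, in BALB/cJ (-1.61 ± 0.29). Peaks tested at Msr1, Plin2 and Olr1 are not given, so their counts cannot be set against the shares of all peaks.

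Between control C57BL/6J and BALB/cJ, the nuclear receptor genes had 0 higher and 2 lower of 45 peaks (0% and 4.44%), the other LXR targets 4 and 8 of 85 (4.71% and 9.41%), and storage and release genes 1 and 3 of 54 (1.85% and 5.56%), where 3.14% of all peaks were higher and 4.16% lower. Olr1 was lower in C57BL/6J at +6.0 kb (-4.86 ± 0.59), and Npc1, the lysosomal cholesterol exporter, at +6.2 kb (-2.43 ± 0.28). Npc1 differed likewise between the alleles of hybrid controls (-2.08 ± 0.22). Cd5l, a macrophage LXR target, had 4 higher and 2 lower peaks in C57BL/6J, the smallest p being at -1.1 kb (2.12 ± 0.34). Plin2 had 1 of each, with the smaller p at -6.8 kb (3.16 ± 0.48, higher). Peaks tested at Cd5l and Plin2 are not given, so these counts have no share to set against all peaks.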

How the data were processed

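ATAC-seq of Kupffer cells was analysed from 26 libraries. The authors trimmed reads to 30 bp, mapped them with Bowtie2 to mm10 or to strain genomes built from it, and shifted positions to mm10. They describe counting tags with HOMER in 1000-bp windows on merged reproducible peaks (no versions given in the sources used here). Counts of some close peaks differed too much for windows of that width. The inbred LPS columns were deposited as whole raw counts. The authors' inbred control and hybrid columns hold values in 0.5-tag steps and were treated as deposited expected counts. Non-whole values were rounded up. This raised 39.8 to 49.7% of the values in inbred control libraries and 0% in inbred LPS libraries. Its effect on the LPS ratios was not tested. Chromosome M rows were left out (0% of tags in C57BL/6J controls, 18.59 to 28.68% in the other inbred libraries).

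edgeR 4.0.16 (R 4.3.3, TMM, quasi-likelihood) was fitted over all peaks, with 1 mean per group over the 17 inbred libraries and a term per animal for alleles. Peaks with a mean normalised count over 16 (strains, alleles) or 4 (LPS) were tested and called at an adjusted p under 0.05 (Benjamini-Hochberg) and an absolute log2 ratio over 1. Inbred and hybrid peaks were matched at 50% reciprocal overlap. DESeq2 1.42.0, other scalings, no minimum, groups alone, a replicate block and leaving out each library were the alternatives. The scripts were tested on simulated data. Named were the peak at each start, every called peak, or the called peak of smallest p per gene where over 12 were called. Further peaks were picked with their values in view. The genes and lists were chosen with earlier results of these data known. Counts for the list of lipid uptake and droplet genes as a whole are not reported here. Labels number replicates but name no animals, so p-values measure the spread between libraries, which may be technical. Replicate pairs differed by more than counting noise (chi-square per peak 2.08 or more).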

Additional observations from a re-analysis of the deposited data

Results flagged for a closer look

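Of 127 groups of 4 or 5 libraries of the named peaks, 6 held 1 library far from the others of its group by Dixon's criterion, where chance gives about 1 in 20. At the start of Ch25h, C57BL/6J control replicate 2 held 20.9 normalised counts against 7.54, 6.5 and 7.98. At Lpl -42.7 kb, A/J control replicate 2 held 3.28 and BALB/cJ control replicate 1 held 2.64 where the others were at 0 or 0.369. The Abcg1 peak at -19.1 kb held 629 perfectly mapped tags in hybrid control replicate 4 against 471, 455 and 449. At Scarb1 +11.7 kb, C57BL/6J control replicate 4 held 78.4 against 51.0, 53.0 and 54.6, and hybrid control replicate 1 held 180 against 257, 260 and 268.

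At 4 peaks the C57BL/6J to BALB/cJ ratio of the strains differed from that of the hybrid's alleles in a test of the difference itself. The differences, strain ratio minus allele ratio on the log2 scale, were 4.22 at Lpl -42.7 kb and -2.33 at Mylip -122.2 kb in controls, and -4.17 at Scarb1 +67.3 kb and -2.28 at Scarb1 +6.3 kb after LPS. Mapping of the BALB/cJ allele, library date and cells outside the Kupffer cell were not tested as sources of these.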

How the results depend on the processing

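Counts of called member peaks that moved by over 1.5 times were as follows. With no minimum count, C57BL/6J against BALB/cJ controls gave 17, A/J against C57BL/6J 4, the strains under LPS 11, the alleles 0 in controls and 2 under LPS, and strain against allele ratios 1 in controls and 1 under LPS. With only the compared groups fitted, A/J against BALB/cJ gave 4 and A/J against C57BL/6J 1. For the strains under LPS, RLE and total-tag scaling each gave 7. For hybrid LPS, all tags gave 102 and perfectly mapped tags 126, over more peaks. The all-tag columns of hybrid controls correlated with the perfectly mapped columns of the same animals at only r = 0.708 to 0.753 (log2 counts over peaks), against 0.996 to 0.998 for LPS animals, so that 102 may not compare the same libraries. DESeq2 gave 2 for alleles in controls.

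Leaving out 1 library gave 9 to 15, 2 to 8, 2 to 3, 22 to 44, 31 to 60, 1 to 7 and 0 to 0 for the inbred comparisons in the order reported (3 of strains, LPS in C57BL/6J and BALB/cJ, strains under LPS, difference in response). It gave 18 to 22, 0 to 1, 1 to 2 and 0 to 0 for the hybrid (LPS, alleles in controls, alleles under LPS, difference in response), and 1 to 2 and 1 to 3 for strain against allele ratios in controls and under LPS. The count of alleles in controls was 0 without CB6F1/J control replicate 1, 3 or 4, and under LPS 2 without CB6F1/J LPS replicate 5. Strain against allele ratios gave 1 without CB6F1/J control replicate 1 and 1 without BALB/cJ LPS replicate 2.

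Same-numbered libraries deviated together at r over 0.1 in 9 of 33 pairs, and among controls in 7 of 12 (r from 0.054 to 0.375), where a library correlated best with its own number in 14 of 24 cases. Since not every pair passed 0.1, the numbers were not taken to pair them. With a replicate block the strains under LPS gave 8 calls in place of 4. Under the block the counts were 12, 8, 3, 37, 61, 8 and 0 in the inbred strains and 18 for hybrid LPS, and alleles without the block of animals gave 1, 1 and 0. Of single peaks, the sign reversed for the Lpl start in BALB/cJ LPS with the replicate block (0.17) and without BALB/cJ control replicate 4 (0.05), and for the Nr1h2 start without C57BL/6J control replicate 4 (-0.04) or BALB/cJ LPS replicate 2 (-0.25). Over all libraries left out in turn these ranged from -0.56 to 0.05 for Lpl, and for Nr1h2 from -0.04 to 0.12 in C57BL/6J and -0.25 to 0.45 in BALB/cJ. None of these was called. The causes were not tested. Depth limits the alleles most, with 0.263 to 0.573 M variant-spanning tags each.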
